A study of Homo sapiens with 5 samples.

Results

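The transcriptome described here is that of LX-2 cells given a control siRNA, which makes up 2 of the 5 samples of the series. The 2 samples, called control 1 and control 2, were taken by their labels, and the 3 samples given siRNA against LIX1L were left out of every value. LX-2 is an immortalised cell line that was derived from stellate cells of human liver. The cells of both controls had been transfected with control siRNA and cultured for 48 h before total RNA was extracted with Trizol. By its title the series is about LIX1L, the stability of the chemokine CCL20 and fibrosis, and the controls are its reference. The labels give neither the sequence of the control siRNA nor whether the 2 controls were separate cultures. LX-2 is a single line grown on its own, so the other cells of a liver are not in the culture as labelled. With 1 group of 2 samples there is no comparison to test. Every statement below is therefore a description, and the spread is the difference between the 2 values.

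Hepatic stellate cells lie between the sinusoid and the hepatocytes. In the healthy liver they are quiescent and store vitamin A as retinyl esters. After injury, or on plastic, they become activated, lose that store, divide, contract and secrete collagen-rich matrix together with inhibitors of matrix breakdown.

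Reads counted over 19936 genes numbered 14877647 in control 1 and 18294056 in control 2. Levels are given as RPM, reads per 1000000 of the library's own total, so that 1 read was worth 0.0672 RPM in control 1 and 0.0547 RPM in control 2. A count of 0 allows up to 3 reads, which is 0.202 and 0.164 RPM. RPM grows with the length of a transcript, so ranks, list medians and the word highest refer to reads. Where no control is named, ranks and the word highest use the geometric mean RPM of both controls. Medians of RPM use their arithmetic mean. A ratio between the levels of different genes is given only as RPKM, here RPM per kilobase of the longest coding transcript. A gene is called present at 1 RPM or more in both controls and not detected at 3 reads or fewer in both. By these rules 12158 genes (61.0%) were present, 5460 (27.4%) were not detected, of which 3685 had 0 reads in both, and 2318 lay in between. The 2 controls were not alike in all genes. Among the 10039 genes with at least 10 RPM in 1 of them, 1273 (12.7%) differed by 2-fold or more, 524 (5.22%) of them higher in control 2 and 749 (7.46%) higher in control 1. Counts of 2-fold differences in a list are to be read against these shares. Counts of members present in a list are to be read against the 61.0% of all genes.

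The 5 genes that mark these cells were present in both controls. COL1A1 (ENSG00000108821, GRCh38 chromosome 17, 50183289 to 50201632, minus strand) encodes the alpha 1 chain of type I collagen, the main protein of scar, and had 1813 RPM in control 1 and 4815 RPM in control 2. VIM (ENSG00000026025, chromosome 10, 17228259 to 17237593, plus strand), the intermediate filament of mesenchymal cells, had 529 and 1258 RPM. TIMP1 (ENSG00000102265, chromosome X, 47582313 to 47586789, plus strand), an inhibitor of matrix metalloproteinases, had 355 and 698 RPM. PDGFRB (ENSG00000113721, chromosome 5, 150113837 to 150155872, minus strand), the receptor through which PDGF drives stellate cell division, had 46.6 and 113 RPM. KRT8 (ENSG00000170421, chromosome 12, 52897187 to 52949954, minus strand), a keratin of simple epithelia, had 240 and 632 RPM. All 5 were higher in control 2, by 1.96-fold for TIMP1 up to 2.66-fold for COL1A1, and the exact 95% Poisson intervals of the 2 controls were apart for each, such as 43.2 to 50.3 RPM and 108 to 118 RPM for PDGFRB. These intervals cover counting error only. The 4 stellate and mesenchymal markers were thus present together with an epithelial keratin.

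The promoters of 4 genes are shown as the ends of the range, from a gene among the highest of all to defining genes of other cells. ACTG1, gamma actin, had 3820 and 5493 RPM. FN1, the matrix protein fibronectin, had 2099 and 1795 RPM. ALB, the serum albumin made by hepatocytes, had 1 read in each control. PTPRC, the CD45 antigen of leukocytes, had 18 and 11 reads. Each sequence holds the 250 bases before the start of the gene in RefSeq on GRCh38.p14, 5′ to 3′ on the gene's own strand, with ACTG1 at chr17:81512800-81513049 (minus strand), FN1 at chr2:215436069-215436318 (minus strand), ALB at chr4:73404037-73404286 (plus strand) and PTPRC at chr1:198638790-198639039 (plus strand). Capitals mark GGGCGG, the GC box, CCAAT, and the CArG box, the element known to bind serum response factor, on either strand. On the opposite strand the first 2 read CCGCCC and ATTGG.
ACTG1: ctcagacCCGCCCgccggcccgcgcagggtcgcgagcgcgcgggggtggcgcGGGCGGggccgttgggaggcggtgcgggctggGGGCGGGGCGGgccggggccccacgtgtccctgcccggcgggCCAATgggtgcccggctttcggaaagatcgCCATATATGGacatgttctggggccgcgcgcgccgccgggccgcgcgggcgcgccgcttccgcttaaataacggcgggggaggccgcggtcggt
FN1: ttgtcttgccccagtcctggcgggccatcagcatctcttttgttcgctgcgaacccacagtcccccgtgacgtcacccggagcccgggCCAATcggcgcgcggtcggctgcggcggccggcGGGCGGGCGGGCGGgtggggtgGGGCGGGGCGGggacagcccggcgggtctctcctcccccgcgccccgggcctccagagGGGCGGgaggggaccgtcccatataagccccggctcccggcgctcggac
ALB: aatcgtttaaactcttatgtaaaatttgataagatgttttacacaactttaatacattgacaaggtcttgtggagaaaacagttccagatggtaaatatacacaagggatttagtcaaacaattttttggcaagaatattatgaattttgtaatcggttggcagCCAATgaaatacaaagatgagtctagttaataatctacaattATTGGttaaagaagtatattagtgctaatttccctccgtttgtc
PTPRC: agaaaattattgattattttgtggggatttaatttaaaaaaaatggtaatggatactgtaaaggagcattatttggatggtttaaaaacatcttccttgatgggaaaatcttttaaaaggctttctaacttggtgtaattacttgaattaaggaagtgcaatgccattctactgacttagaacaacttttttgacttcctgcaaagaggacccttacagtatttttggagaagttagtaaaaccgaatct
ACTG1 held 4 GC boxes, 1 of them on the opposite strand, with 1 CCAAT and 1 CArG box that begins 94 bases before the start. FN1 held 6 GC boxes and 1 CCAAT, ALB held 2 CCAAT, and PTPRC held none of these letters in its window. The dinucleotide CG occurred 43 times in ACTG1, 32 times in FN1, 3 times in ALB and 1 time in PTPRC.

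A split of this kind also ran between the genes present and the genes not detected. PTPRC, shown above, lay in between by the rule used here and belongs to neither class. RefSeq promoters were matched by symbol for 15321 genes of the files, and a gene with several starts counted once for each start. In the 14638 promoters of genes that were present, 63.7% held GGGCGG, 5.89% held TATAAA, the TATA box, and the median number of CG was 20. In the 4565 promoters of genes that were not detected, 29.3% held GGGCGG, 17.8% held TATAAA and the median number of CG was 4. The classes also differed in base composition, with a median of 64.4% G and C in genes present and 52.8% in genes not detected. The part of base composition in these shares was not tested. CCAAT was about as frequent in both, at 33.0% and 33.7%, against 32.0% of all 35116 promoters in the table, where GGGCGG stood at 42.6% and TATAAA at 10.7%. For TATAAA the split did not extend to the top of the range: 13.9% of the promoters of the 100 highest genes and 13.7% of those of the matrix genes present held it. A CArG box lay in 9 of the 59 promoters (15.3%) of the actin and contractile genes that were present, and in 1.16% of all promoters. The 9 belonged to ACTG1, ACTG2, ACTN1, CAPN2, CNN2, FLNA, MYLK, SMTN and TPM4. The CArG search was added after the ACTG1 sequence had been seen, and a match of letters is a description, not a site.

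The reads were spread over many genes. The highest gene took 0.789% of reads in control 1 and 1.07% in control 2, and the 50 highest took 10.4% and 13.3%, a mean of 11.9% ± 2.0 (SD, n = 2). It took 1175 genes in control 1 and 972 in control 2 to reach 50% of the reads. Ranked by the geometric mean of both controls, the 30 highest genes held 7.70% and 9.78% of reads, and 22 of them stood among the 30 highest in each control on its own. The list named the same few functions: respiration, translation, the actin cytoskeleton, glycolysis and the extracellular matrix.

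Transcripts of the mitochondrial genome led it, with 6 of the 30 places. MT-CO1, the catalytic subunit of cytochrome c oxidase, had 7841 and 10737 RPM, the first rank overall. MT-ND4, a subunit of complex I, had 3764 and 5190 RPM, and MT-CO3, MT-CO2, MT-CYB and MT-ATP6 followed. All 13 mitochondrially encoded genes were present, with 2.24% of reads in control 1 and 3.35% in control 2. In RPM none of the 13 differed by 2-fold or more between the controls, and MT-CO3, at 1.95-fold, was close to that limit.

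Translation was the next large function. EEF1A1, the elongation factor that brings aminoacyl-tRNA to the ribosome, had 7894 and 6925 RPM and was the highest gene of control 1. EEF2, which moves the ribosome along, had 1808 and 1955 RPM. RACK1, a scaffold on the small ribosomal subunit, had 1464 and 1592 RPM. The 71 translation factors together took 1.97% and 1.71% of reads, and 62 of them were present. Of the 86 cytoplasmic ribosomal protein genes 84 were present, at 2.87% and 3.91% of reads, although none reached the 30 highest. RPL3 had 1162 and 1448 RPM, and RPS2, at 1226 and 1363 RPM, stood first of them per kilobase. The nucleolar proteins NPM1, at 1986 and 2026 RPM, and NCL, at 1804 and 1341 RPM, also stood among the 30.

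Actin genes and the proteins that work on actin filaments took 3.31% of reads in control 1 and 3.63% in control 2, over 39 genes. ACTB, beta actin, had 5513 and 6952 RPM and was the third in control 1 and the second in control 2. FLNA, which cross-links filaments, had 3234 and 2562 RPM. MYH9, the heavy chain of non-muscle myosin, had 2832 and 2170 RPM, and TMSB4X, which binds free actin, had 945 and 1689 RPM. All 24 genes of the cytoskeletal list were present. Among them only TMSB10, another thymosin, at 602 and 1465 RPM, and MYL6, a myosin light chain, at 210 and 435 RPM, differed by 2-fold or more.

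Glycolysis took 1.08% of reads in control 1 and 1.96% in control 2, and all 18 of its listed genes were present. PKM, the pyruvate kinase of dividing cells, had 2678 and 4406 RPM, ENO1, enolase, had 2179 and 3696 RPM, and GAPDH had 1701 and 2945 RPM. LDHA, which turns pyruvate into lactate, had 454 and 1567 RPM. In 7 of the 18 genes control 2 was 2-fold higher or more, and in none was control 1, against 5.22% and 7.46% of all genes at this level. Chaperones took 1.21% and 1.75%, and all 20 were present. HSPA8 had 811 and 2498 RPM and HSP90AB1 had 1398 and 1405 RPM, and CALR, calreticulin of the endoplasmic reticulum, at 788 and 1601 RPM, stood first of them per kilobase by the geometric mean of both controls.

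**Figure D1:**
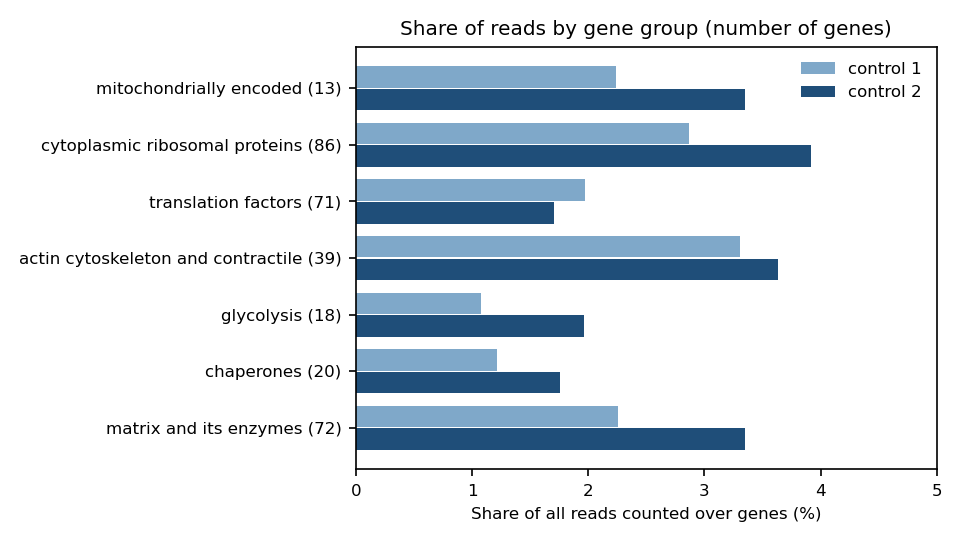
Share of all reads counted over genes (x axis, %) for 7 groups of genes, with the number of genes in brackets and 1 bar for each control. Ribosomal protein genes reached 2.87% in control 1 and 3.91% in control 2, and translation factors are the group whose share was higher in control 1, at 1.97% against 1.71%.

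Other genes among the 30 do not belong to these groups. B2M, the light chain of MHC class I, had 2383 and 4797 RPM. ANXA2, an annexin of the plasma membrane, had 2394 and 2648 RPM. FTL, the light chain of the iron store ferritin, had 1808 and 1863 RPM, and PSAP, the precursor of lysosomal saposins, had 1525 and 1968 RPM. TUBB, a beta tubulin, had 1233 and 1756 RPM. On the scale per kilobase, 18 of the 30 kept a place, and short transcripts such as MT-CO3, MT-CO2 and FTL moved up, to ranks 2, 3 and 7. COL1A1 moved from rank 9 to 87 and FN1 from rank 17 to 216.

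Genes of activated stellate cells were nearly all present: 19 of 20, with a median of 514 RPM against 8.44 RPM over all genes. They took 1.04% of reads in control 1 and 1.82% in control 2. LOXL2, which cross-links collagen, had 1048 and 1761 RPM, and LOX, an enzyme of the same kind, had 341 and 735 RPM. SPARC, a collagen-binding matrix protein, had 450 and 2059 RPM, and CCN2, also called CTGF, had 206 and 492 RPM. The exception was CTHRC1, with 0 and 13 reads. In 9 of the 18 members with at least 10 RPM, control 2 was 2-fold higher or more, and in none was control 1, against 5.22% and 7.46% of all 10039 genes at that level.

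Smooth muscle alpha actin, ACTA2 (ENSG00000107796, chromosome 10, 88935074 to 88991339, minus strand), the usual sign of a myofibroblast, was present at a modest level of 39.0 and 35.4 RPM, close to equal in the 2 controls. Per kilobase, ACTB stood 99.3-fold and 138-fold above it in control 1 and 2. The smooth muscle gamma actin, ACTG2, at 272 and 234 RPM, stood 4.55-fold and 4.33-fold above it. Part of the ACTA2 transcript overlaps a gene on the opposite strand. No label says whether reads were counted by strand, so the ACTA2 level and these ratios are uncertain. TAGLN, an actin-binding protein of the same program, had 212 and 163 RPM. In the contractile list 13 of 15 genes were present, led by MYL9, a myosin light chain, at 1284 and 1318 RPM, and TPM4, a tropomyosin, at 1752 and 785 RPM. The late smooth muscle genes were low. CNN1, calponin, had 15.9 and 17.1 RPM, and MYH11, the smooth muscle myosin heavy chain, had 5 and 14 reads. In this list 1 of 12 genes with at least 10 RPM was 2-fold higher in control 1, TPM4, and none in control 2. Over all genes at that level the shares were 7.46% and 5.22%.

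Genes of quiescent stellate cells were split, with 12 of 22 present, 8 in between and 2 not detected, and a median of 2.02 RPM. At 5 RPM in both controls 5 of the 22 were present, and at 1 RPKM of transcript 7. LRAT, which makes the stored retinyl esters, had 0 reads in both controls. DES, desmin, the classical filament of stellate cells in rodents, had 1 and 13 reads, and GFAP had 7 and 9 reads. Against these, ECM1, a secreted matrix protein, had 189 and 265 RPM, NGFR, the low-affinity neurotrophin receptor, had 97.5 and 45.0 RPM, and BAMBI, a decoy receptor of the TGF-beta family, had 40.2 and 54.7 RPM. LHX2, a transcription factor of quiescent stellate cells, had 14.4 and 12.8 RPM. HGF, the hepatocyte growth factor, had 8.33 and 3.94 RPM. PPARG, a nuclear receptor of the quiescent state, had 15 and 13 reads, and so stood at the edge of the 1 RPM rule. The quiescent list as a whole took 0.0395% and 0.0431% of reads.

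Other mesenchymal cells of the liver left a mixed picture. Of 12 portal fibroblast genes 5 were present. GREM1, an antagonist of BMP ligands, was among the 30 highest genes at 2123 and 1159 RPM, FBLN2, fibulin 2, had 208 and 348 RPM and SLIT2, a secreted guidance protein, had 131 and 92.5 RPM. ELN, elastin, had 1 and 3 reads and ENTPD2, an ectonucleotidase of portal fibroblasts, had 2 in each. Of 10 mesothelial genes 4 were present. BNC1, a transcription factor of mesothelium and epithelia, had 75.0 and 32.4 RPM, while MSLN, mesothelin, had 3.97 and 8.64 RPM and WT1 had 5.11 and 7.43 RPM. UPK1B and LRRN4, surface proteins of mesothelium, had at most 2 reads.

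**Figure D2:**
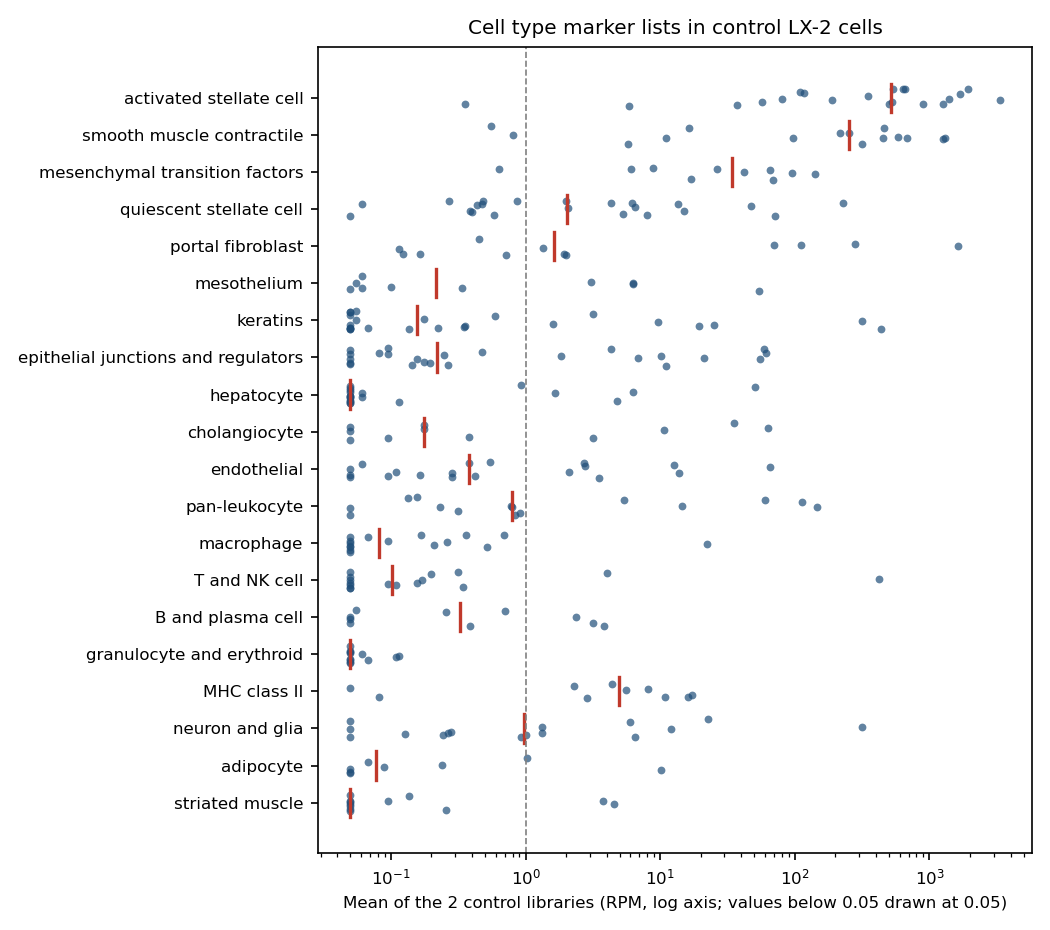
Mean of the 2 controls (x axis, RPM, log scale) for each member of 20 lists of cell type markers, 1 point per gene, with values below 0.05 drawn at 0.05. Red bars are list medians and the dashed line is 1 RPM; the activated stellate list has its median at 514 RPM, the quiescent list at 2.02 RPM and the granulocyte and erythroid list at 0.

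Matrix genes and the enzymes that act on matrix took 2.26% of reads in control 1 and 3.35% in control 2, over 72 genes. Collagens were present in 17 of 21 cases and took 0.601% and 1.22%. COL1A2, the partner chain of COL1A1 in type I collagen, had 101.1 and 134 RPM, and per kilobase COL1A1 stood 14.4-fold and 28.97-fold above it. COL3A1, which forms thin fibrils, had 275 and 1043 RPM, and COL5A1, of type V, had 300 and 966 RPM. The basement membrane chains COL4A2 and COL4A1 had 898 and 1044 RPM, and 203 and 298 RPM, a ratio per kilobase of 4.51 and 3.57. The type VI chains COL6A1 and COL6A2 were nearly even, at 1.12 and 1.10 per kilobase. The cartilage collagens COL2A1, at 4 and 17 reads, and COL10A1, at 1 read in each, stood at the low end. In 6 of the 16 collagens with at least 10 RPM control 2 was 2-fold higher or more, and in none was control 1. Over all 10039 genes at that level the shares were 5.22% and 7.46%. COL1A1, COL3A1 and COL5A1, among the 6, are also in the activated stellate list, so the counts of these lists overlap.

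Of 25 glycoproteins and proteoglycans 23 were present. Beside FN1 and SPARC, CCN1, a matricellular protein, had 1526 and 1947 RPM and THBS2, thrombospondin 2, had 596 and 1248 RPM. TNC, tenascin C, had 616 and 471 RPM. The small proteoglycans DCN, decorin, at 30.6 and 95.3 RPM, and LUM, lumican, at 16.2 and 93.2 RPM, were present, and POSTN, periostin, had 23.7 and 91.0 RPM. FMOD, fibromodulin, had 0 reads in both.

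Enzymes that build matrix stood beside those that break it down. PLOD2, a collagen lysyl hydroxylase, had 365 and 816 RPM, and SERPINH1, the collagen chaperone HSP47, had 276 and 353 RPM. MMP1, interstitial collagenase, had 685 and 145 RPM, whereas MMP2, a gelatinase, had 147 and 400 RPM, so the 2 differed between the controls in opposite directions. TIMP2 had 609 and 711 RPM and TIMP3 had 238 and 198 RPM, while TIMP4 had 0 reads. MMP13 had 1 read in each control. In all, 22 of 26 were present. SERPINE2, a secreted protease inhibitor, had 748 and 790 RPM.

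Integrins bind cells to this matrix, and 17 of 26 were present, against 61.0% of all genes. ITGB1, the beta chain shared by collagen and fibronectin receptors, had 1567 and 2169 RPM. ITGA5, its partner for fibronectin, had 730 and 1061 RPM and ITGA3, its partner for laminin, had 616 and 618 RPM. ITGAV, part of the receptors that activate latent TGF-beta, had 111 and 171 RPM. ITGA11, the partner of ITGB1 for fibrillar collagen, had 26.8 and 26.5 RPM. ITGA8, described on stellate cells in tissue, had 0 reads in both, and the leukocyte chain ITGAL had 1 read in each.

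Among receptor tyrosine kinases, 19 of 25 were present, and AXL, not PDGFRB, was the first of them in reads and per kilobase. AXL, the receptor of GAS6, had 904 and 633 RPM, and per kilobase stood 23.4-fold and 6.74-fold above PDGFRB. FGFR1 had 305 and 226 RPM, DDR2, a receptor for fibrillar collagen, had 270 and 133 RPM, MET, the receptor of HGF, had 166 and 133 RPM and EGFR had 181 and 109 RPM. PDGFRA had 4.91 and 6.72 RPM, so that per kilobase PDGFRB stood 10.9-fold and 19.4-fold above it. Several of these receptors had a ligand in the same cells: GAS6 had 76.9 and 148 RPM, FGF2 had 248 and 66.7 RPM and PDGFC had 111 and 93.5 RPM. PDGFB, the classical ligand of PDGFRB, had 4.50 and 10.5 RPM. VEGFA had 269 and 141 RPM. Of 25 growth factor ligands 20 were present, and the 3 not detected were FGF10, IGF1 and IGF2, each with 0 reads. For IGF2 this is uncertain, since 25% or more of its transcript lies in exons of another gene.

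The TGF-beta family, which drives matrix production in stellate cells, had 17 of 20 members present. The receptors TGFBR1, at 141 and 189 RPM, and TGFBR2, at 85.3 and 69.2 RPM, stood beside the ligands TGFB1, at 80.3 and 148 RPM, and TGFB2, at 137 and 76.3 RPM. TGFB3 had 10 and 22 reads. ENG, endoglin, a co-receptor, had 144 and 162 RPM, and INHBA, the chain of activin A, had 164 and 43.7 RPM.

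Of 18 WNT ligands 6 were present, led by the non-canonical ligands WNT5A, at 75.8 and 105 RPM, and WNT5B, at 51.7 and 37.8 RPM. WNT1, WNT3A and WNT7A, typical canonical ligands, had 0 to 3 reads in each control. Not all canonical ligands were this low: WNT3 had 6.65 and 6.61 RPM and WNT10B had 2.42 and 1.91 RPM. WNT9A, at 8.20 and 2.13 RPM, was also present. Receptors of WNT ligands were broader, with 11 of 13 present, among them RYK, at 126 and 139 RPM, and FZD2, at 67.1 and 107 RPM. In the Hedgehog pathway 7 of 11 genes were present, against 61.0% of all genes. Among them were the transcription factor GLI2, at 36.1 and 30.6 RPM, and the transducer SMO, at 19.1 and 31.9 RPM. The ligands SHH, IHH and DHH had at most 3 reads. NOTCH2 led its family with 429 and 321 RPM, and 8 of 9 Notch genes were present, with the ligand JAG1 at 107 and 32.0 RPM.

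Stellate cells signal to leukocytes through chemokines, and 12 of 25 ligands were present. CXCL8, interleukin 8, which draws neutrophils, had 795 and 214 RPM. CXCL12, a ligand that retains CXCR4-bearing cells, had 202 and 475 RPM. In RPKM, CXCL8 stood above CXCL12 in control 1, at 466 against 57.3. In control 2 the levels were close, at 125 against 134. CCL2, which draws monocytes, had 18.0 and 27.2 RPM. CCL20 (ENSG00000115009, chromosome 2, 227805739 to 227817564, plus strand), the chemokine of the series title, had 74 and 56 reads, 4.97 RPM (exact 95% Poisson interval 3.91 to 6.24) and 3.06 RPM (2.31 to 3.98). LIX1L, the targeted gene of the other samples (ENSG00000271601, chromosome 1, 145933423 to 145958001, minus strand), had 26.4 and 35.5 RPM here. An antisense gene overlaps it, and no label says whether reads were counted by strand.

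Receptors for chemokines were far fewer than ligands, 3 of 19. ACKR3, a scavenger of CXCL12, had 14.5 and 4.54 RPM, CCR1 had 2.76 and 3.33 RPM and CCR10 had 30 and 32 reads. CXCR4, the signalling receptor of CXCL12, had 4 and 2 reads. CCR6, the receptor of CCL20, had 0 reads in both, but 74.9% of its transcript lies in exons of another gene, so that its level is uncertain.

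Cytokines were present in 15 of 23 cases, against 61.0% of all genes. IL1B, interleukin 1 beta, had 579 and 87.9 RPM, IL6 had 152 and 44.0 RPM, and LIF had 63.2 and 23.2 RPM, each higher in control 1. IL32, a cytokine of human cells, had 72.3 and 98.9 RPM. TNF had 1 and 2 reads, IFNB1 had 1 in each and IL10 had 0 and 1. Their receptors were present in 16 of 22 cases, with OSMR, the oncostatin M receptor, at 569 and 579 RPM and IL6ST, the shared chain gp130, at 814 and 351 RPM. Of the Toll-like receptors TLR4, which senses bacterial lipopolysaccharide, had 24.8 and 18.1 RPM, TLR3 had 5.98 and 5.30 RPM, and TLR7 and TLR8 had at most 2 reads. MYD88, the adaptor of TLR4, TLR7 and TLR8 but not of TLR3, had 44.3 and 40.2 RPM.

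Transcription factors of the liver mesenchyme were present in 15 of 18 cases. NR2F2, an orphan nuclear receptor of mesenchyme and veins, had 307 and 469 RPM and was the highest of 48 nuclear receptors. Of these 48, 29 were present, close to the 61.0% of all genes. NR2F1 had 89.7 and 217 RPM. TEAD1, the DNA-binding partner of YAP, had 161 and 90.8 RPM, TBX3 had 105 and 86.3 RPM, FOXF1 had 76.0 and 58.9 RPM, and GATA4, which restrains liver fibrosis in mice, had 44.6 and 31.9 RPM. TCF21, another factor of stellate cells, had 9 and 3 reads. The bile acid receptor NR1H4 had 12 and 14 reads, and the vitamin D receptor VDR had 82.0 and 44.2 RPM.

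HOX genes, which record position along the body axis, were present in 24 of 39 cases, close to the 61.0% of all genes. The B cluster held 8 of 10, led by HOXB7 at 40.1 and 38.8 RPM, HOXB2 at 43.3 and 35.7 RPM and HOXB9 at 55.9 and 15.2 RPM. The C cluster held 8 of 9, up to its last gene HOXC13 at 13.9 and 23.3 RPM. The A and D clusters held 5 of 11 and 3 of 9, with no gene above 12.0 RPM. HOXA9 had 0 and 2 reads, and HOXD1 and HOXD12 had 0 in both. Of the 39 genes 5 share exons with a neighbour, among them HOXD3 and HOXD4, both at 0 reads, so their levels are uncertain.

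**Figure D3:**
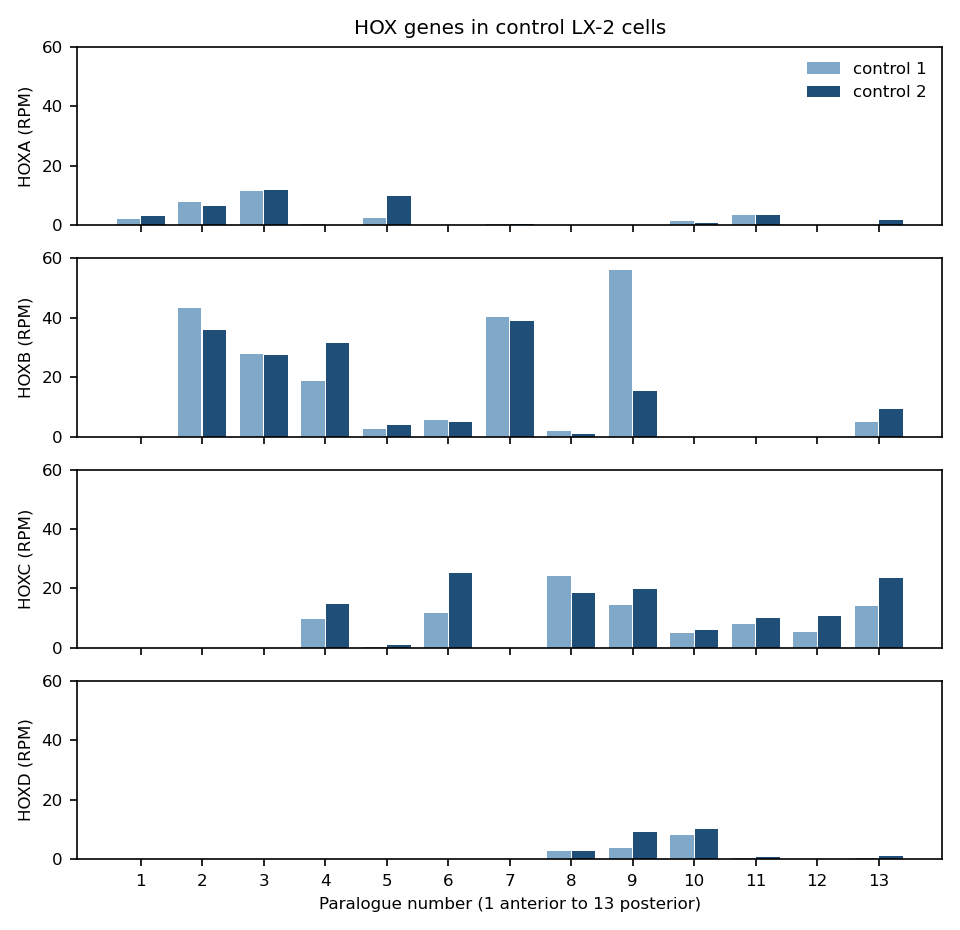
Level of the HOX genes (y axis, RPM) by paralogue number (x axis) in the 4 clusters, 1 bar for each control. Paralogues that do not exist and genes at 0 reads both show no bar; HOXB9 is the tallest at 55.9 RPM in control 1, against 15.2 RPM in control 2.

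Epithelial genes were present in part. Of 24 keratins 7 were present and 11 not detected. KRT8 and its partner KRT18, at 169 and 467 RPM, were near even per kilobase, at ratios of 0.990 and 0.942, and VIM stood 2.51-fold and 2.27-fold above KRT8. Part of the VIM transcript overlaps a gene on the opposite strand, so its ratio to KRT8 is uncertain. KRT80 had 29 and 21.5 RPM, KRT10 had 25.5 and 13.1 RPM and KRT81 had 10.3 and 9.07 RPM. KRT19, the keratin of bile ducts, had 2 and 4 reads. Of the keratins of stratified epithelium, KRT14 had 0 reads in both and KRT5 had 8 and 3, while KRT10, given above, was present. The simple pair KRT8 and KRT18 thus stood apart from the rest of the family.

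Junction proteins divided in the same way, with 9 of 24 present and 9 not detected, and with 5 present at 5 RPM in both controls. OCLN, occludin, had 66.8 and 50.8 RPM, JUP, plakoglobin, had 39.3 and 83.4 RPM and DSG2, a desmosomal cadherin, had 57.3 and 52.6 RPM. CLDN1, a claudin of tight junctions, had 38.8 and 3.50 RPM. CDH1, E-cadherin, had 2 and 1 reads, EPCAM had 2 and 4, and GRHL2, a transcription factor of epithelia, had 0 and 1. Factors tied to the loss of epithelial traits were present in 9 of 10 cases. CDH2, N-cadherin, had 185 and 94.8 RPM, ZEB2 had 131 and 57.8 RPM, TWIST2 had 71.4 and 67.4 RPM and SNAI2 had 59.1 and 24.8 RPM. PRRX1, a factor of limb and fibroblast mesenchyme, had 10 and 11 reads.

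Genes that define liver epithelium were mostly at or near 0, with exceptions. Of 20 hepatocyte genes 4 were present and 15 were not detected, with 6 at 0 reads in both, among them HNF4A, APOB, TTR and F9. CPS1, an enzyme of the urea cycle, had 46.2 and 54.4 RPM. ASGR1, the asialoglycoprotein receptor, had 4.50 and 8.04 RPM, SERPINA1 had 3.16 and 6.34 RPM and CYP2E1, a cytochrome P450, had 18 and 38 reads. At 5 RPM in both controls 1 of the 20 was present. Of 11 cholangiocyte genes 4 were present. ANXA4, an annexin, had 65.0 and 61.1 RPM, SOX9, a factor of bile duct and mesenchyme alike, had 42.0 and 28.8 RPM, SPP1, osteopontin, had 12.8 and 8.64 RPM and KRT7 had 4.10 and 2.19 RPM. CFTR, a chloride channel of bile duct cells, had 0 and 1 reads.

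Endothelial and blood genes were low in most cases, with exceptions. Of 19 endothelial genes 6 were present, 8 lay in between and 5 were not detected. At 5 RPM in both controls 3 of the 19 were present. EGFL7, a secreted protein of vessels, had 43.8 and 87.0 RPM, TIE1 had 17.9 and 7.65 RPM and FLT1, a VEGF receptor, had 21.6 and 5.85 RPM. CDH5, the cadherin that defines endothelium, had 0 and 1 reads, PECAM1 had 6 and 8, and LYVE1 had 0 in both. The list summed to 100.96 and 110 RPM.

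Of 15 genes of leukocytes at large 5 were present, 7 lay in between and 3 were not detected. LCP1, plastin 2, which bundles actin, had 198 and 92.4 RPM, HCLS1, a cortactin-like protein of blood cells, had 108 and 119 RPM, ARHGDIB had 68.2 and 52.6 RPM and LAPTM5 had 17.1 and 11.9 RPM. PTPRC had 1.21 and 0.601 RPM, and SPI1 and IKZF1, which define blood cells, had at most 4 reads. The lists of single blood lineages held few genes that were present. Among 16 T and NK cell genes only IL7R, the interleukin 7 receptor, at 596 and 254 RPM, and CD4, at 3.43 and 4.65 RPM, were present, while CD3D, CD3E, CD3G and LCK had at most 1 read. Among 16 macrophage genes only CD14, at 8.81 and 35.7 RPM, was present, and CD163, VSIG4 and TYROBP had at most 2 reads. CD68 had 1 and 0 reads, but 95.3% of its transcript lies in exons of another gene. Of 10 B cell genes 2 were present, CD79B and FCRLA, neither above 4.70 RPM in either control, and MS4A1 had 0 reads. Of 12 granulocyte and erythroid genes none was present and 11 were not detected.

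MHC class II genes, which present antigen, were low but present in 7 of 10 cases, at 34.5 RPM in sum in control 1 and 99.9 RPM in control 2. HLA-DPB1 had 12.0 and 19.9 RPM and HLA-DPA1 had 7.66 and 26.6 RPM. CIITA, the factor that switches them on, had 2.49 and 8.64 RPM, and CD74, their chaperone, had 3.29 and 13 RPM. HLA-DQA1 and HLA-DQB1 had at most 3 reads.

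Lineages outside the liver gave single genes. Of 16 neural genes 6 were present, led by L1CAM, an adhesion molecule, at 297 and 330 RPM, and MBP at 35.8 and 9.78 RPM, while SOX10 had 0 reads. Of 12 genes of striated muscle 2 were present, TTN at 4.64 and 4.43 RPM and ACTC1 at 3.16 and 4.37 RPM, and MYOD1 had 0 reads. POU5F1 was the one gene of 12 from pluripotent and germ cells to be present, at 1.08 and 5.79 RPM, with SOX2 and NANOG at 0 and 1 reads. Reads of POU5F1 may come from its near-identical copies elsewhere in the genome, which the counts cannot separate. Of 383 olfactory receptor genes 372 were not detected and 2 were present, so few reads fell over a family that is silent in most tissues. OR2W3, at 11.2 and 6.5 RPM, was the higher of the 2.

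The cells carried the genes of division. All 22 proliferation genes were present, at 0.613% and 0.633% of reads. PCNA, the DNA polymerase clamp, had 652 and 702 RPM, MCM7, part of the replicative helicase, had 577 and 498 RPM and MKI67, the Ki-67 antigen, had 346 and 481 RPM. Only CCNB1, a mitotic cyclin, at 231 and 480 RPM, differed by 2-fold or more. Inhibitors of the cycle were present as well. CDKN2A, which encodes p16 and ARF, had 174 and 173 RPM and per kilobase stood 20.2-fold and 39.4-fold above its neighbour CDKN2B. CDKN1A, the p21 inhibitor, had 82.0 and 103 RPM and RB1 had 275 and 169 RPM. E2F1, which is not an inhibitor but a factor held back by RB1, had 314 and 184 RPM. TERT, the catalytic subunit of telomerase, had 0 and 1 reads.

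Some low values concern genes that every cell uses. ALDOA, the aldolase of glycolysis, had 4.30 and 14.3 RPM, RPL17 had 28 and 29 reads and RPS10 had 20 and 42 reads. In each of them a large part of the transcript, 88.4%, 76.3% and 35.0%, lies in exons of another gene on the same strand in GENCODE 29. Among the ribosomal and proteasome genes, the 107 with no shared exon had a median of 253 RPM and the 10 with 25% or more shared had a median of 5.22 RPM. Over all genes, 56.7% of the 1410 with 25% or more shared were not detected, against 25.9% of the 17230 with none. The labels do not state how reads over shared exons were counted. A low value of such a gene is therefore not read as absence, and among the cell type markers named here this holds for AQP1, CD68, DPT, HLA-DMB, TNNI3 and TUBB3. Overlap on the opposite strand touches VIM, with 46.0% of its transcript, and ACTA2, with 38.3%. Without a known strand rule, reads of the gene on the other strand cannot be separated there, and reads lost over the shared bases cannot be counted. LDHB, with 64.6% shared and 623 and 687 RPM, shows that not every such gene was low.

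**Figure D4:**
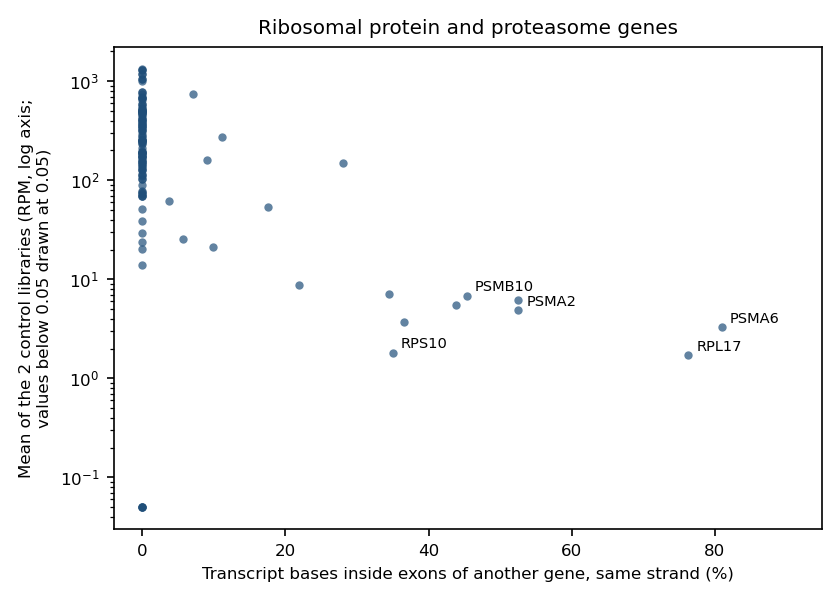
Mean level of ribosomal protein and proteasome genes (y axis, RPM, log scale, values below 0.05 drawn at 0.05) against the part of the transcript inside exons of another gene on the same strand (x axis, %). The 107 genes at 0% have a median of 253 RPM and the 10 genes at 25% or more have a median of 5.22 RPM, with 5 of the genes named.

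The 2 controls ranked genes alike, with r = 0.94 (Pearson, log2 RPM) across the 12158 genes that were present, which are not independent replicates. Of their 100 highest genes they shared 69. At 2-fold or more, 524 of the 10039 genes (5.22%) were higher in control 2 and 749 (7.46%) were higher in control 1. The median log2 ratio of control 2 to control 1 was -0.12, and it moved with the length of the transcript, from 0.17 in the shortest of 5 equal bins of the genes present to -0.29 in the longest. With the ratio centred by median-ratio scaling, 624 genes were higher in control 2 and 615 in control 1, so genes near the 2-fold limit can change side. The part of transcript length in the groups below was not tested.

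Among the 10 genes with the widest gaps on each side, NDRG1, known to respond to low oxygen, had 35.2 RPM in control 1 and 471 RPM in control 2, and NOG, the BMP antagonist noggin, had 7 and 266 reads. PPFIA4, DEPP1, AQP3 and MMP9 were on the same side, MMP9 at 2.02 and 14.4 RPM. On the other side ECM2, a matrix protein, had 34.4 and 1.31 RPM, CHAC1, which degrades glutathione, had 163 and 8.14 RPM, and PSAT1, an enzyme of serine synthesis, had 716 and 71.2 RPM. SLC7A11, the cystine transporter, had 265 and 29.7 RPM, MMP3 had 35.9 and 3.23 RPM and IL1A had 29.4 and 3.23 RPM.

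3 lists were drawn up after these ratios had been seen, so their counts describe the 2 controls and support nothing. Of 39 genes of amino acid supply and of the stress response through ATF4 with at least 10 RPM, 31 were 2-fold higher or more in control 1 and none in control 2, with a median log2 ratio of -1.54. STC2, a secreted glycoprotein, had 2188 and 372 RPM, SLC3A2, a chain of amino acid transporters, had 1495 and 287 RPM, TRIB3 had 243 and 40.8 RPM, and the tRNA synthetase GARS1 had 579 and 118 RPM. ATF4 itself had 619 and 410 RPM and SLC38A2 had 964 and 896 RPM, so not all of the list was 2-fold apart. Of 29 genes known to respond to low oxygen, 18 were 2-fold higher or more in control 2 and none in control 1, with a median log2 ratio of 1.14. BNIP3, which acts in mitophagy, had 104 and 311 RPM, PGK1 had 424 and 1350 RPM, and P4HA1, a collagen prolyl hydroxylase, had 38 and 191 RPM, whereas VEGFA, at 269 and 141 RPM, lay the other way.

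Of 19 genes of interleukin 1 and secreted inflammatory factors, 13 were 2-fold higher or more in control 1 and none in control 2, with a median log2 ratio of -1.58. IL1B, CXCL8, IL6 and MMP1 belong to it. NFKBIA, an inhibitor of NF-kappa B, at 113 and 144 RPM, and CCL2, at 18.0 and 27.2 RPM, were higher in control 2, by less than 2-fold. The collagen and activated stellate genes that were higher in control 2 and the cytokines that were higher in control 1 thus come from the same pair of samples. With 1 sample on each side, a difference between cultures and a difference between preparations cannot be told apart.

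**Figure D5:**
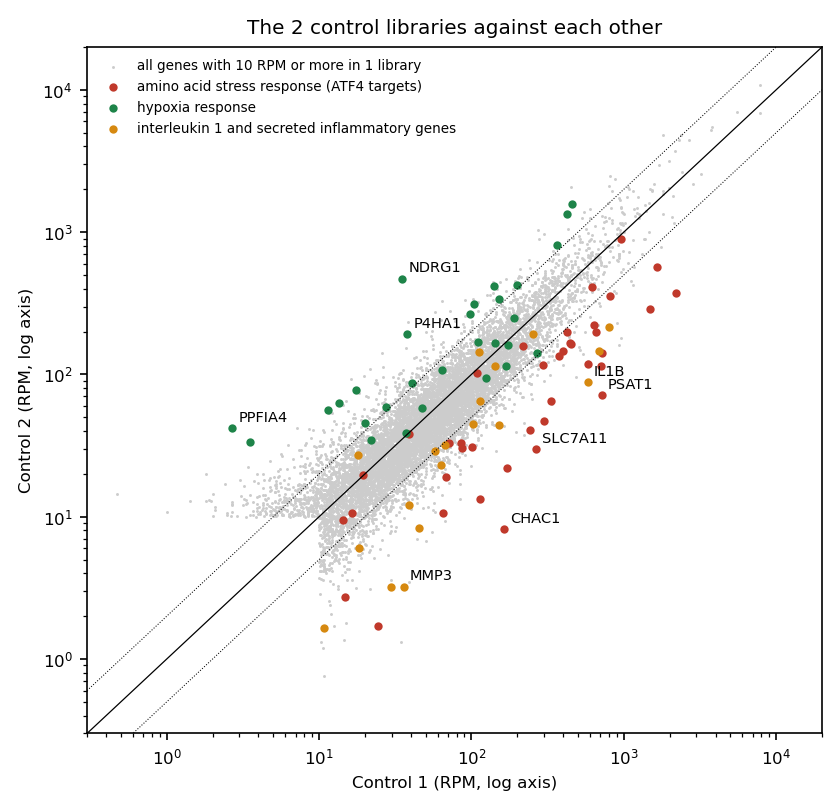
Level in control 2 (y axis, RPM, log scale) against control 1 (x axis, RPM, log scale) for the 10039 genes with at least 10 RPM in 1 of them, with the line of equal level and dotted lines at 2-fold. Coloured points are the 3 lists drawn up after the ratios were seen; 31 of 39 amino acid and stress genes lie beyond 2-fold on the side of control 1 and 18 of 29 low-oxygen genes on the side of control 2.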

How the data were processed

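RNA of 2 LX-2 samples given control siRNA was described, and the 3 samples given LIX1L siRNA entered no level. Per the file headers, the authors deposited FPKM for each of 19936 human Ensembl gene IDs, and for siLIX1L 3 also a length and a raw read count per gene. Bowtie 0.12.2 and the mouse build mm8 stand in the submitters' processing notes, at odds with the human IDs. For the aligner settings, the build in use and the counting rule: not given in the sources used here. The deposited lengths equalled gene spans with introns in GENCODE 29 on GRCh38 for 19567 of 19926 genes (98.2%), with a median of 27026 bases against 2920.5 for the longest coding transcript, so deposited FPKM is low for genes with long introns.

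FPKM times length was a whole number of reads for 100% of values, within 0.01 reads, and gave the deposited count of siLIX1L 3 for all 19936 genes. The step was first tested on simulated data. RPM is relative to the recovered totals. Intervals are exact (Poisson for levels, Clopper-Pearson for shares, at most ± 0.00889 percentage points for a list), at 95%, and cover counting error only, since no molecular identifiers are recorded. Symbols came from a gene name table or GENCODE 29, and 19926 IDs had one. Python 3.11.15, numpy 2.4.6, pandas 2.3.3, scipy 1.17.1 and matplotlib 3.10.9 were used.

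The members and the 61 gene lists were chosen with earlier results of these data known. Named are the marker genes, ACTA2, DES, CCL20 and LIX1L, the 30 highest genes by geometric mean RPM, in each list up to 5 highest members and defining members at 3 reads or fewer, and the 10 highest and 10 lowest ratios between the controls. Some genes that this rule names are not reported here. Other names were chosen after their values were seen, as were 3 added lists, the threshold of 25% shared exons and the CArG box. No test was possible with 1 group. The alternatives were other thresholds of presence, other length scales, no mitochondrial genes, other minimums and folds, median-ratio scaling and either control alone.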

Additional observations from a re-analysis of the deposited data

How the results depend on the processing

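The count of genes present was 12158 and ranged from 10349 to 12164 with 5 RPM in both controls, 1 RPKM of transcript in both, no mitochondrial genes or (a choice made after seeing the data) no genes with shared exons, but was 5555 at 1 deposited FPKM in both, which divides by lengths that include introns. It was 12431 with control 1 alone and 12535 with control 2 alone. Genes not detected numbered 5460, and 3685 when 0 reads were asked for. With control 1 alone they numbered 6124 and with control 2 alone 5760. The share of the 50 highest genes was 11.9% of reads and became 18.4% per kilobase of transcript, with 10.4% and 13.3% in control 1 and 2 alone. Of the 30 highest genes, 14 kept a place on deposited FPKM and 18 per kilobase of transcript, and 26 and 24 with control 1 or control 2 alone. Genes 2-fold apart between the controls numbered 1273. They were 2154 with a minimum of 1 RPM, 614 with a minimum of 50 RPM, 4279 with no minimum and 0.5 reads added, and 3554 at 1.5-fold. Median-ratio scaling gave 1239 and moved the share of these genes that were higher in control 2 from 41.2% to 50.4%. Of the 61 lists, the count of members present moved by more than 1.5 times in 10 at 1 RPKM of transcript, in 19 at 5 RPM, in 3 with control 2 alone and in 1 with control 1 alone. At 5 RPM the members present became, among others, 5 for quiescent stellate cells, 5 for epithelial junctions, 1 for hepatocytes, 3 for endothelium, 3 for MHC class II, 1 for T and NK cells, 3 for WNT ligands, 5 for Notch, 9 for cytokines, 13 for growth factors, and 0 for B cells, striated muscle, pluripotency and chemokine receptors. No paired analysis was possible because only the control group is described. Genes at 3 reads or fewer in both controls are not detectable at this depth, which does not show that they are silent.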
